A study of Rattus norvegicus with 12 samples.

Results

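Genes of the smooth muscle contractile apparatus and of the tropomyosin family, 10 in all, were followed in H9c2, a myoblast line that was derived from the embryonic rat heart. They are Myl9, Myh11 and Mylk on the myosin side, Tpm1, Tpm2, Tpm3 and Tpm4, the 4 tropomyosin genes, and Cnn1, Cnn2 and Tagln, which encode 2 calponins and transgelin. The 10 genes were taken by symbol from a table of 30562 genes, and each symbol belonged to 1 locus there. RNA was measured by polyA-selected, stranded sequencing in 12 libraries, with 3 libraries for control cells, 3 for methylmalonic acid (MMA), 3 for folic acid (FA) and 3 for the combination (MMA+FA). Methylmalonic acid accumulates when cells cannot use propionate for want of cobalamin, and folic acid is a vitamin given as a supplement. The design separates the effect of each compound from that of the pair, all in the same line. The sources used here give no doses or times of exposure. No label says that the 3 libraries of a group came from separate cultures, so p-values measure only the spread between these libraries, which may be technical.

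Values are TPM, a share of each library's total corrected for gene length, so the depth of a library is unknown. The fit covered the 12263 genes that averaged 1 TPM or more, and all 10 genes followed here were among them. Between 12070 and 12286 genes reached 1 TPM in a library, and transcripts of the mitochondrial genome took 8.78% to 11.4% of TPM. Against control, the median of all genes tested was at a log2 difference of -0.07 (MMA), -0.05 (FA) and -0.12 (MMA+FA). Median-ratio scaling brings that median to about 0, and its values are given beside those of TPM as deposited for some results only. A value printed alone is that of TPM as deposited and can shift under this scaling. Differences are on the log2(TPM + 1) scale, and called means an adjusted p under 0.05.

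In smooth muscle, force comes from myosin filaments that pull on actin filaments. Myosin is switched on when its regulatory light chain (Myl9) is phosphorylated by myosin light chain kinase (Mylk), and Myh11 encodes the heavy chain that marks differentiated smooth muscle. Tropomyosins are coiled-coil rods that lie along the actin filament and decide which partners may bind it, calponins bind actin and restrain the myosin ATPase, and transgelin (SM22) is an actin-binding protein widely used as an early smooth muscle marker. Several of these genes are targets of serum response factor (SRF) and its coactivators. Tropomyosin genes can give several isoforms, muscle or non-muscle, by alternative starts and splicing, and a value per gene adds the isoforms together.

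The cells held much RNA of the thin filament genes and of the light chain gene Myl9, and little of Myh11 and Mylk. Over the 12 libraries, Tagln averaged 2241 TPM and ranked 50 of the 12263 tested genes. Tpm4 followed with 1346 TPM, Tpm1 with 1185, Tpm2 with 732, Myl9 with 639, Cnn2 with 499, Tpm3 with 287 and Cnn1 with 155 TPM. Myh11 averaged only 2.61 TPM (rank 11060) and Mylk 1.94 TPM (rank 11483), so both stood near the filter limit. Neighbours in this order kept their places in all 12 libraries, except that Tpm1 was above Tpm4 in 1 library and Mylk above Myh11 in 2. The ranges of Tpm4 and Tpm1, of Tpm2 and Myl9, of Myl9 and Cnn2, and of Myh11 and Mylk overlapped, and the other neighbours were apart.

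The label calls the cells cardiomyocytes, and the cardiac markers were mixed, with most of them below 1 TPM on average. Myh6 averaged 0.045 TPM, Myh7 0.010 and Actc1 0.12, and Myl3 was listed at 0 in every library. Of 14 cardiac markers measured, 4 reached a mean of 1 TPM (Tnnt2 with 38.9, Nkx2-5 with 11.4, Gata4 with 5.95 and Ttn with 1.21 TPM). The skeletal muscle regulator Myod1 averaged 54.9 TPM and Myog 17.4 TPM, while Pax7 was listed at 0. Of 9 further smooth muscle markers all 9 reached 1 TPM, led by Acta2 at 5001 TPM. Of 10 fibroblast and mesenchymal markers 7 did, with Pdgfra at 0.10 and Fap listed at 0. None of 6 endothelial markers reached 1 TPM, and their sum stayed at or below 0.48 TPM in each library. Of the leukocyte and epithelial markers 1 of 5 (Cd3e) and 1 of 4 (Krt8) did.

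The starts of 3 genes that were higher in all libraries with FA (Tpm1, Tpm2 and Cnn2) and of Tpm4, which was not, are shown for comparison. They are the 250 bases before the annotated start, 5′ to 3′ on the strand of the gene, from RefSeq on build GRCr8, which is not the build of the values (mRatBN7.2). The windows lie at chr8:76543416-76543665 (minus strand) for Tpm1, chr5:62575727-62575976 (minus) for Tpm2, chr7:10370313-10370562 (minus) for Cnn2 and chr16:17732484-17732733 (minus) for Tpm4. Capitals mark a CArG box, the SRF motif of A and T letters between CC and GG, and CATTCC, the motif of TEAD factors, each searched on both strands.
Tpm1: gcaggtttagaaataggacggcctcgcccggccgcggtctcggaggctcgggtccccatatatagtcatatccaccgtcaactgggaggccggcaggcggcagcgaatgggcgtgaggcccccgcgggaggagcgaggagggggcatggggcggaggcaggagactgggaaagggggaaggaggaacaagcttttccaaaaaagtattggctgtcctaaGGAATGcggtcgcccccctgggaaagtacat
Tpm2: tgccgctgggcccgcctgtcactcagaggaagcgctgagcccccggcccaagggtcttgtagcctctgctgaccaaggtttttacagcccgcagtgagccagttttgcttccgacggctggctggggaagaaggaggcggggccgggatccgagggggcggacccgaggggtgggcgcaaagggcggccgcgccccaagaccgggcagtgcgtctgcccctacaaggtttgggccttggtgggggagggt
Cnn2: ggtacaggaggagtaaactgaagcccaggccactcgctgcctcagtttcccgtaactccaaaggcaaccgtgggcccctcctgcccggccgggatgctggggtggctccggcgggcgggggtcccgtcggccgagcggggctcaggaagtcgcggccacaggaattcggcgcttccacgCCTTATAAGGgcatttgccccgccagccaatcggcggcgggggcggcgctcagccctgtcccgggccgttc
Tpm4: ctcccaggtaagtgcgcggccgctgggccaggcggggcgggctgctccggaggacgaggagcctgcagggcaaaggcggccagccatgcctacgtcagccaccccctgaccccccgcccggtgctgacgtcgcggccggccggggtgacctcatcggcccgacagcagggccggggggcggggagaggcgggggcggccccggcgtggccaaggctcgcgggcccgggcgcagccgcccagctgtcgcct
Cnn2 held the CArG box CCTTATAAGG, which begins 71 bases before the start, and Tpm1 held CATTCC on the other strand, 31 bases before it. Neither motif was found in the windows of Tpm2 and Tpm4. Of the 10 genes, 7 matched an entry of that RefSeq table, with 9 windows in all since Tpm3 has 3 starts, of which 2 windows overlap. A CArG box stood in 1 of the 9 windows, against 1.5% of all 33469 windows of this length, and CATTCC in 2 (Tpm1 and Mylk), against 12.1%. The motif GGGCGG (either strand) stood in 6 of 9, against 30.5%, and TATAAA in 0, against 12.9%. A match describes the letters only, and no binding was measured.

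**Figure D1:**
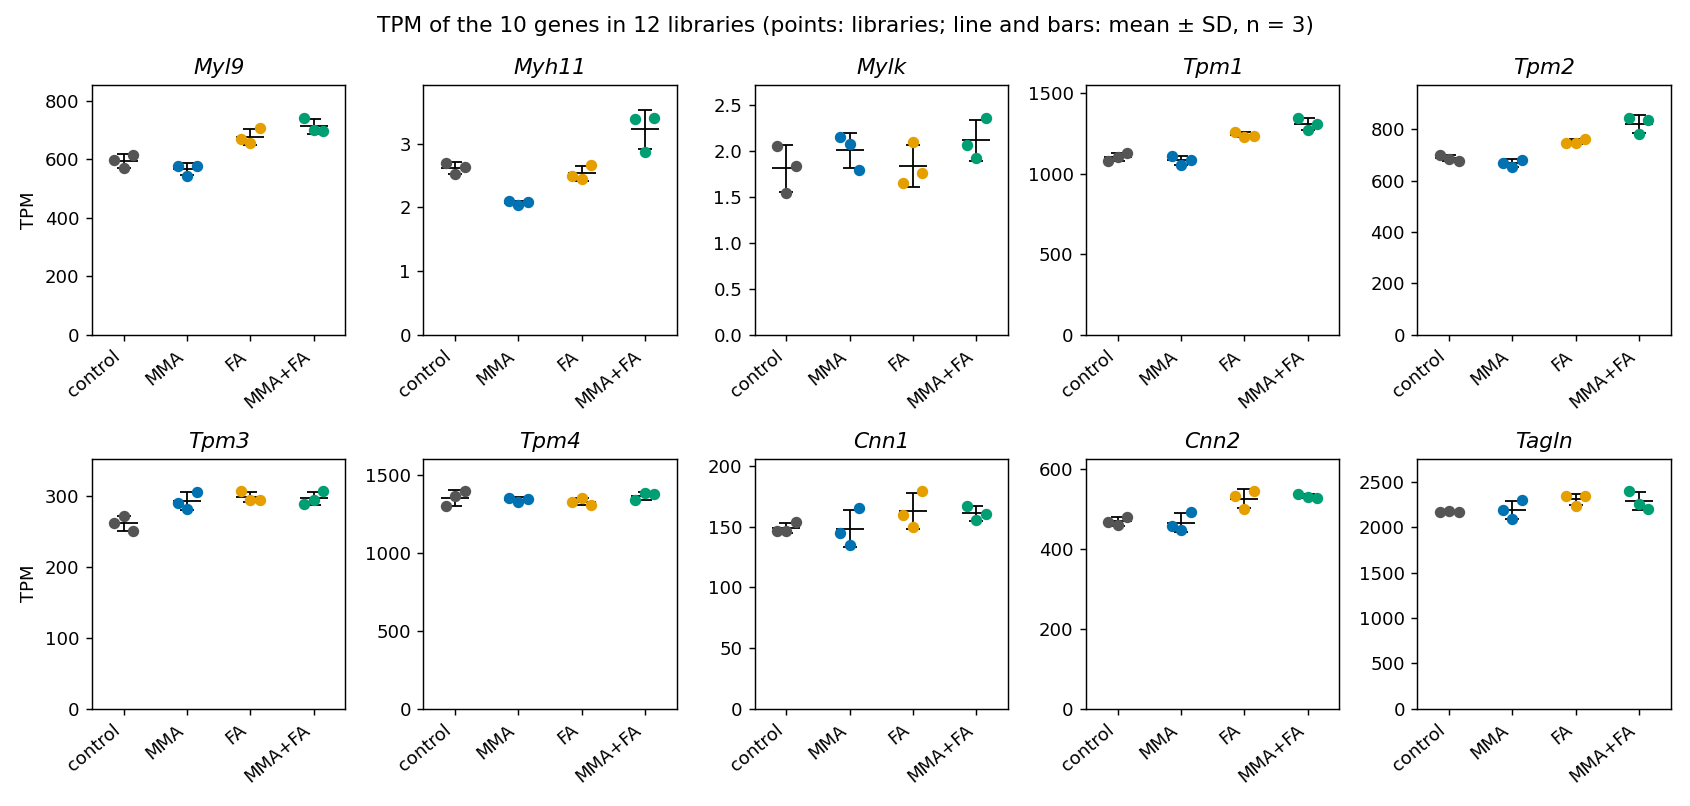
TPM (vertical axis, from 0, a scale of its own per gene) of the 10 genes in the 4 groups (horizontal axis). Points are libraries, and the line with bars is the mean ± SD (n = 3). In Myl9, Tpm1, Tpm2 and Cnn2 the 6 libraries with FA all lie above the 6 without, while Tpm4 stays between 1296 and 1394 TPM throughout.

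Across the 4 groups, limma's F test called 6 of the 10 genes at an adjusted p under 0.05: Tpm1 (adjusted p = 0.000392), Tpm2 (0.000512), Myl9 (0.000766), Cnn2 (0.00568), Myh11 (0.00777) and Tpm3 (0.0117). Tagln, Cnn1, Mylk and Tpm4 were not called (adjusted p between 0.207 and 0.738). Of all genes tested, 41% were called, so the count of 6 in 10 stands against a high background. The call of Tpm3 was lost without control replicate 3 (adjusted p = 0.0668). Under median-ratio scaling Tagln was called too (adjusted p = 0.0313).

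In 4 of the 10 genes, Myl9, Tpm1, Tpm2 and Cnn2, each of the 6 libraries with FA lay above each of the 6 without. No gene followed here lay below in this way, and of all genes tested 1.51% lay wholly above and 2.5% wholly below. With MMA against without, none of the 10 genes separated in either direction, where 0.432% of all genes lay above and 5.68% below. Under median-ratio scaling 3 of the 4 still separated, and Cnn2 overlapped.

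On the myosin side, Myl9 read 598, 569 and 617 TPM in the control libraries, 579, 544 and 579 with MMA, 671, 655 and 708 with FA, and 744, 700.4 and 698 with MMA+FA. The libraries with FA did not overlap with those without. Myl9 rose with FA by 0.19 on the log2 scale (SE 0.04, adjusted p = 0.0221 in limma) and with MMA+FA by 0.26 against control (SE 0.04, adjusted p = 0.000905). Added to MMA, FA raised it by 0.33 (SE 0.04, adjusted p = 0.000632), from 567 ± 20.0 to 714 ± 25.5 TPM (mean ± SD, n = 3). The call with FA alone was lost in 6 of 15 settings (adjusted p up to 0.0745). MMA alone gave -0.07 (adjusted p = 0.294), and MMA added to FA gave 0.08 (adjusted p = 0.284).

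Myh11, the smooth muscle heavy chain, was low everywhere and read 2.70, 2.52 and 2.64 TPM in control, 2.10, 2.04 and 2.08 with MMA, 2.49, 2.44 and 2.67 with FA, and 3.39, 2.87 and 3.41 with MMA+FA. The MMA libraries were the lowest 3 of the 12 and the MMA+FA libraries the highest 3. FA added to MMA raised Myh11 by 0.46 (SE 0.08, adjusted p = 0.00363), the largest difference among the 10 genes in this comparison. Against control, MMA gave -0.24 (adjusted p = 0.0625) and MMA+FA gave 0.22 (adjusted p = 0.0526), both just short of the threshold, with groups that did not overlap. Under median-ratio scaling the fall with MMA was smaller (-0.18, adjusted p = 0.143 in limma), while the rise with MMA+FA was called (0.31, adjusted p = 0.0104). That rise was also called when MMA+FA replicate 2 was left out (0.28, 0.0286). A pseudocount of 1 shrinks differences at this level, and the counting error of a gene near 2 TPM is unknown here.

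Mylk, the kinase that activates the motor, read 2.05, 1.54 and 1.83 TPM in control, 2.15, 2.07 and 1.79 with MMA, 1.65, 2.09 and 1.76 with FA, and 2.06, 1.92 and 2.36 with MMA+FA. All groups overlapped, and the widest pairwise difference, MMA+FA against control, was 0.15 with a 95% interval from -0.08 to 0.39. Differences of that width were not resolved for this gene.

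Among the tropomyosins, Tpm1 read 1079, 1105 and 1128 TPM in control, 1108, 1056 and 1086 with MMA, 1260.4, 1230.0 and 1235 with FA, and 1349, 1274 and 1312 with MMA+FA. The 3 MMA+FA libraries were the highest, the FA libraries came next, and control and MMA libraries overlapped. Tpm1 rose by 0.17 with FA (SE 0.03, adjusted p = 0.0128), by 0.25 with MMA+FA against control (SE 0.03, adjusted p = 0.00028) and by 0.28 when FA was added to MMA (SE 0.03, adjusted p = 0.000378). The step from FA to MMA+FA was 0.08 (adjusted p = 0.146), or 0.16 with adjusted p = 0.0251 under median-ratio scaling.

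Tpm2, whose main product is the beta tropomyosin of striated and smooth muscle, read 699, 683 and 678 TPM in control, 669, 652 and 682 with MMA, 747.3, 747.2 and 763 with FA, and 845, 782 and 835 with MMA+FA. Its libraries fell into the same order of groups as those of Tpm1. Tpm2 rose by 0.13 with FA (SE 0.04, adjusted p = 0.0348), by 0.26 with MMA+FA against control (SE 0.04, adjusted p = 0.000323) and by 0.30 when FA was added to MMA (SE 0.04, adjusted p = 0.000336). The call with FA alone was lost in 8 of 15 settings, including 5 with 1 library left out (adjusted p up to 0.129). Tpm2 was the 1 gene of the 10 called when MMA was added to FA (0.12, SE 0.04, adjusted p = 0.0465), where 10.5% of all genes were called, 1.6% higher and 8.9% lower. That call was lost without each library of the comparison except MMA+FA replicate 2 (adjusted p from 0.0622 to 0.125), and with a replicate block (adjusted p = 0.0554).

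Tpm3, a tropomyosin gene of slow muscle and of many non-muscle cells, was higher in every treated group. It read 262, 272 and 250.02 TPM in control, 290.0, 281 and 305 with MMA, 306, 294 and 293 with FA, and 289, 294 and 306 with MMA+FA. Each treated library lay above each control library, and the 3 treated groups overlapped. It rose by 0.16 with MMA (SE 0.04, adjusted p = 0.0215), by 0.19 with FA (SE 0.04, adjusted p = 0.0192) and by 0.18 with MMA+FA (SE 0.04, adjusted p = 0.00592). FA added to MMA gave 0.02, with a 95% interval from -0.07 to 0.11. Tpm3 was the 1 gene of the 10 that MMA alone changed, against a background of 20.4% of genes called (3.85% higher and 16.5% lower). The call with FA was lost in 4 of 15 settings (adjusted p up to 0.0913). The call with MMA missed the threshold when control replicate 1 (0.16, adjusted p = 0.0619), control replicate 3 (0.13, 0.0901) or MMA replicate 3 (0.13, 0.0905) was left out.

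Tpm4, a gene of non-muscle tropomyosin and the most abundant of the family here, read 1296, 1361 and 1394 TPM in control, 1352, 1323 and 1344 with MMA, 1328, 1352 and 1304 with FA, and 1335, 1381 and 1379 with MMA+FA. All groups overlapped. Its differences against control lay between -0.02 and 0.02, and the 95% intervals reached from -0.10 to 0.09. With MMA+FA the typical gene was lower by 0.12, so under median-ratio scaling the same values gave 0.14 (adjusted p = 0.0177).

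The share of each gene in the family does not depend on the scaling between libraries, while the summed TPM of the family does. The 4 genes together held 3402 ± 58.8 TPM in control and 3383 ± 60.8 with MMA, against 3620 ± 23.7 with FA and 3794 ± 54.4 with MMA+FA (mean ± SD, n = 3). Tpm1 made up 32.4 ± 0.215% of that sum in control and 32.0 ± 0.328% with MMA, against 34.3 ± 0.331% with FA and 34.6 ± 0.666% with MMA+FA. The share of Tpm4 was 39.7 ± 0.784% in control and 39.6 ± 0.307% with MMA, against 36.7 ± 0.557% with FA and 36.0 ± 1.03% with MMA+FA. Tpm2 went from 20.2 ± 0.682% in control to 21.6 ± 0.609% with MMA+FA, and Tpm3 from 7.68 ± 0.377% to 8.64 ± 0.259% with MMA and 7.81 ± 0.225% with MMA+FA. There were 0.80 to 0.83 transcripts of Tpm1 for each of Tpm4 in the libraries without FA and 0.91 to 1.01 in those with FA. The ratio of Tpm1 to Tpm2 stayed between 1.54 and 1.69 in all 12 libraries.

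**Figure D2:**
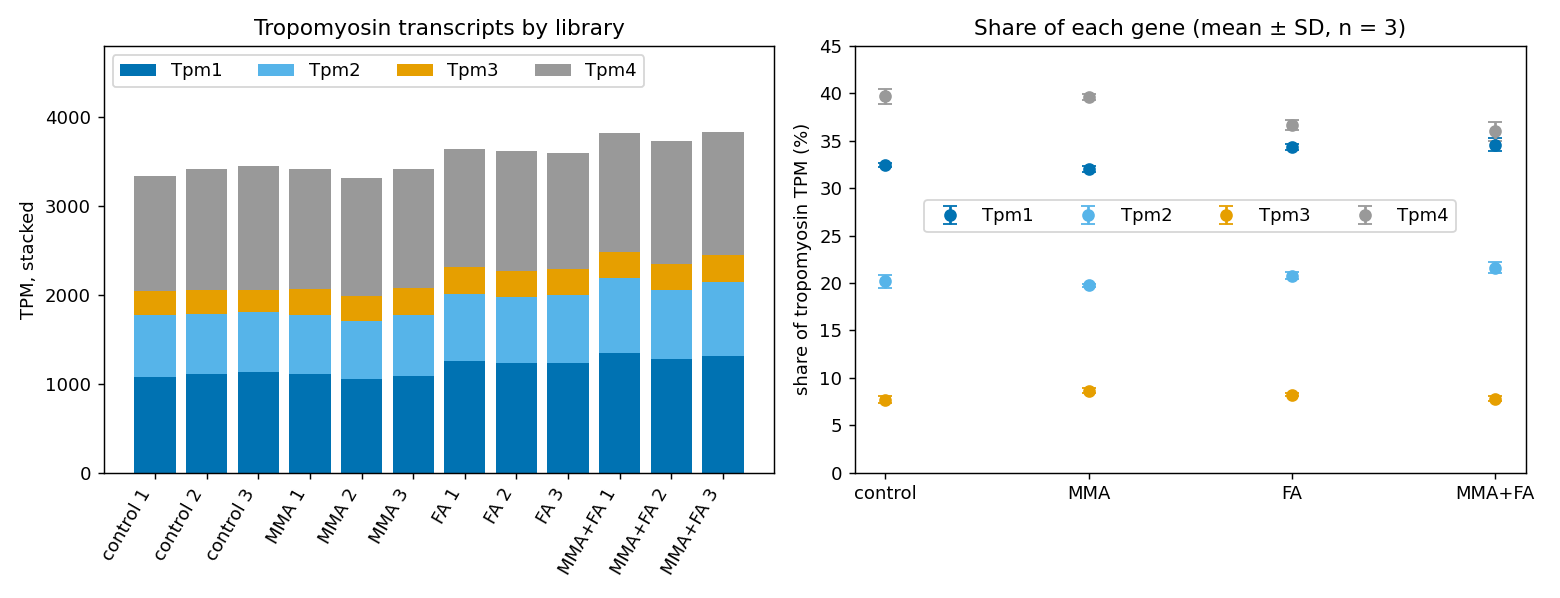
Left, TPM of the 4 tropomyosin genes stacked for each of the 12 libraries (vertical axis, from 0). Right, the share of each gene in the tropomyosin sum in percent (vertical axis) by group, mean ± SD (n = 3). The share of Tpm4 is 39.7% in control and 36.0% with MMA+FA, while that of Tpm1 goes from 32.4% to 34.6%.

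Of the calponins, Cnn2, the form found in many non-muscle cells, read 468, 459.9 and 481 TPM in control, 458, 448 and 493 with MMA, 534, 500.3 and 545 with FA, and 539, 531 and 528 with MMA+FA. The libraries with FA were all higher than those without. Cnn2 rose by 0.16 with FA (SE 0.04, adjusted p = 0.0314), by 0.18 with MMA+FA against control (SE 0.04, adjusted p = 0.00628) and by 0.19 when FA was added to MMA (SE 0.04, adjusted p = 0.0122). The call with FA alone was lost in 8 of 15 settings, including 5 with 1 library left out (adjusted p up to 0.102). The call of FA added to MMA missed the threshold when MMA replicate 1 (0.18, adjusted p = 0.0566) or MMA replicate 2 (0.16, 0.0634) was left out.

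Cnn1, the smooth muscle calponin, read 146.4, 146.4 and 154 TPM in control, 145, 135 and 165 with MMA, 159.8, 149.9 and 179 with FA, and 167, 155 and 160.4 with MMA+FA. Relative to its mean it spread more than Cnn2 in each group, with an SD of 10.2% of the mean with MMA and 9.09% with FA, against 5.08% and 4.44% for Cnn2. Against control, MMA gave -0.01, FA gave 0.13 (adjusted p = 0.258) and MMA+FA gave 0.11 (adjusted p = 0.243), and the last was 0.24 with adjusted p = 0.0312 under median-ratio scaling. The 95% interval with FA, from -0.03 to 0.29, holds the 0.16 of Cnn2. Transcripts of Cnn2 outnumbered those of Cnn1 by 2.99 to 3.42 times in every library.

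Tagln, the most abundant of the 10, read 2167, 2178 and 2171 TPM in control, 2190.0, 2094 and 2298 with MMA, 2346, 2239 and 2345 with FA, and 2398, 2261 and 2205 with MMA+FA. All 6 libraries with FA lay above the 3 controls, and the MMA libraries reached both sides. Against control, MMA gave 0.01, FA gave 0.09 (adjusted p = 0.171) and MMA+FA gave 0.07 (adjusted p = 0.18), none of them called. Under median-ratio scaling MMA+FA gave 0.20 (adjusted p = 0.0081).

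**Figure D3:**
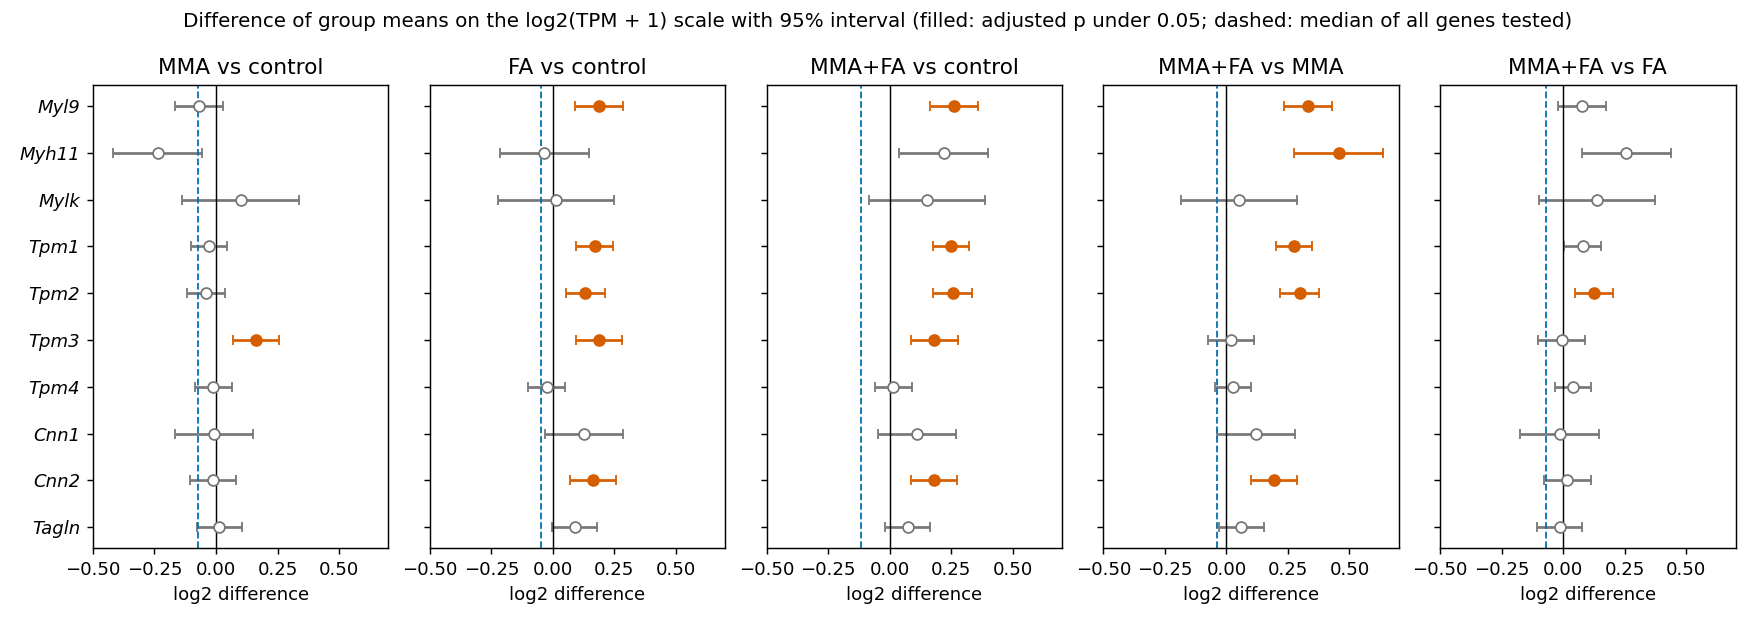
Difference of group means on the log2(TPM + 1) scale (horizontal axis) of the 10 genes in 5 comparisons, with 95% intervals from limma. Filled points have an adjusted p under 0.05, and the dashed line is the median of all genes tested. Myl9, Tpm1, Tpm2 and Cnn2 are filled in all 3 comparisons of cells with FA against cells without it.

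By comparison, FA against control called 5 of the 10 genes, all higher (Myl9, Tpm1, Tpm2, Tpm3 and Cnn2), where 12.4% of all genes were called, 3.67% higher and 8.7% lower. In 6 of the 10 the libraries of both groups did not overlap (those 5 and Tagln, all higher), as in 33.7% of all genes, 9.43% higher. The median of the 10 was 0.13, against -0.05 over all genes. The count varied with the library left out: 1 gene without control replicate 1 or 3, and 2 without control replicate 2 or FA replicate 3. It was 5 without FA replicate 2, and 0 without FA replicate 1, where limma still gave 5 at an unadjusted p under 0.05. Of all genes, 1517 were called with every library, and 633, 214, 727, 610, 2571 and 334 in these fits, in the order given. The calls of the 10 genes lost in this way had adjusted p from 0.054 to 0.129 in limma. Tpm1 kept its call in each fit but that without FA replicate 1 (0.16, adjusted p = 0.0549). Without FA replicate 1, 3022 of all genes had an unadjusted p under 0.05 in limma. MMA+FA against control called the same 5 genes, all higher, where 39.3% of all genes were called but 6.67% higher and 32.6% lower. Libraries did not overlap in 8 of the 10 (all but Tpm4 and Mylk, all higher), as in 53.7% of all genes, 10.4% higher. There the median of the 10 was 0.18 against -0.12 over all genes, and the count was 5 or 6 with any 1 library left out. Relative to the typical gene, by median-ratio scaling, 9 of the 10 were called higher (all but Mylk), with Myl9 at 0.39, Tpm2 and Tpm1 at 0.38, and Tpm3 and Cnn2 at 0.31. Of all genes, 818 were higher and 4000 lower as deposited, and 1948 and 1655 after this scaling. These comparisons share the control libraries.

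When FA was added to MMA, 5 of the 10 genes rose (Myl9, Tpm1, Tpm2, Cnn2 and Myh11) and none fell, where 13.7% of all genes were called, 4.19% higher and 9.53% lower. The same 5 had libraries that did not overlap, as did 32.7% of all genes, 10.7% higher. The median of the 10 was 0.16, against -0.04 over all genes. The 4 genes other than Cnn2 kept this call with any 1 library of the comparison left out. MMA against control changed 1 of the 10 (Tpm3), and 2 had libraries that did not overlap (Tpm3 higher and Myh11 lower), as did 45.3% of all genes, 10.5% higher and 34.8% lower. MMA added to FA changed 1 (Tpm2), and 3 had libraries that did not overlap (Tpm1, Tpm2 and Myh11, all higher), as did 28.7% of all genes, 5.07% higher.

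The interaction, which asks whether FA acted differently with and without MMA, called 0 of the 10 genes in limma, and 5 had an unadjusted p under 0.05. Of all 12263 genes tested, 2.41% were called, and 2163 had an unadjusted p under 0.05 in limma. Myh11 came nearest, with 0.49 (SE 0.12, 95% interval 0.24 to 0.75, adjusted p = 0.0502), since FA gave -0.04 alone and 0.46 in the presence of MMA. It was called under median-ratio scaling (0.49, adjusted p = 0.0382). For Tpm2 the interaction was 0.17 (adjusted p = 0.115), for Myl9 0.14 (0.265), for Tpm1 0.11 (0.275) and for Tpm3 -0.17 (0.179).

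Markers of other kinds of cell moved beside these results. The summed level of the 14 cardiac markers was 32.9 to 39.2 TPM in control and 39.3 to 41.9 with MMA, against 63.0 to 65.6 with FA and 85.7 to 105 with MMA+FA. Most of the rise in this sum was Tnnt2, which averaged 16.1 TPM in control and 73.6 with MMA+FA. Ttn averaged 0.83 TPM in control and 1.63 with MMA+FA. Nkx2-5 (11.04 and 11.31) and Gata4 (6.41 and 5.69) did not follow, and Myh6 stayed at or below 0.11 TPM in each library. The 10 skeletal myoblast markers summed to 92.8 to 102 TPM in control and 60.4 to 71.4 with MMA+FA. Within that sum Myod1 averaged 72.7 TPM in control and 31.7 with MMA+FA, while Myog (15.8 and 18.4), Acta1 (3.77 and 9.25) and Des (3.04 and 4.24) averaged more with MMA+FA. The 10 fibroblast and mesenchymal markers summed to 8344 to 9041 TPM in control and 8598 to 9679.6 with MMA, against 9820 to 11374 with FA and 8512 to 10058 with MMA+FA. The 4 epithelial markers, mostly Krt8, summed to 19.8 to 26.1 TPM in the libraries without FA and 26.8 to 33.9 in those with it. The leukocyte sum lay between 1.6 and 3.61 TPM, with all groups overlapping. The 9 further smooth muscle markers summed to 6328 to 6456 TPM in control and 6180 to 7023 with MMA, against 7114 to 7575 with FA and 7851 to 8093 with MMA+FA. Within that sum Acta2 averaged 4302 TPM in control and 5774 with MMA+FA, and Actg2, Cald1, Lmod1 and Myocd also averaged more with MMA+FA. Cnn3 (605 and 542), Itga8 (22.6 and 17.5), Synpo2 (21.0 and 20.2) and Smtn (106.1 and 105.6) averaged less. The part of these shifts in the results above was not tested. In RNA from a whole culture, more cells of a kind and more RNA per cell cannot be told apart.

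The genes were unequal in how they varied together over the 12 libraries. On log2(TPM + 1), Pearson's r was 0.96 between Myl9 and Tpm1 and between Tpm1 and Tpm2, and 0.94 between Myl9 and both Tpm2 and Cnn2. Tpm4 had r between -0.19 and 0.21 with each of the others. With the group means removed, the closest pair was Cnn1 and Cnn2 (0.93), followed by Tpm2 and Myh11 (0.87), while Myl9 with Tpm1 was 0.55. The libraries share their groups and the TPM scale, so these values describe likeness only and carry no p. Over 9585 other genes with a symbol and a mean of at least 5 TPM, the nearest to Myl9 were Tgfb3 (r = 0.98), Arhgef5 and Itga7 (0.97 each). Nearest to Tpm2 were Slc20a2, Itga7 and Cnksr3 (0.97 each), to Cnn2 Sipa1l2 and Lmcd1 (0.96 each), to Myh11 F2r and Ano6 (0.94 each), and to Tagln Emc10 (0.96). The nearest to Tpm4 was Mob1a (0.85).

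**Figure D4:**
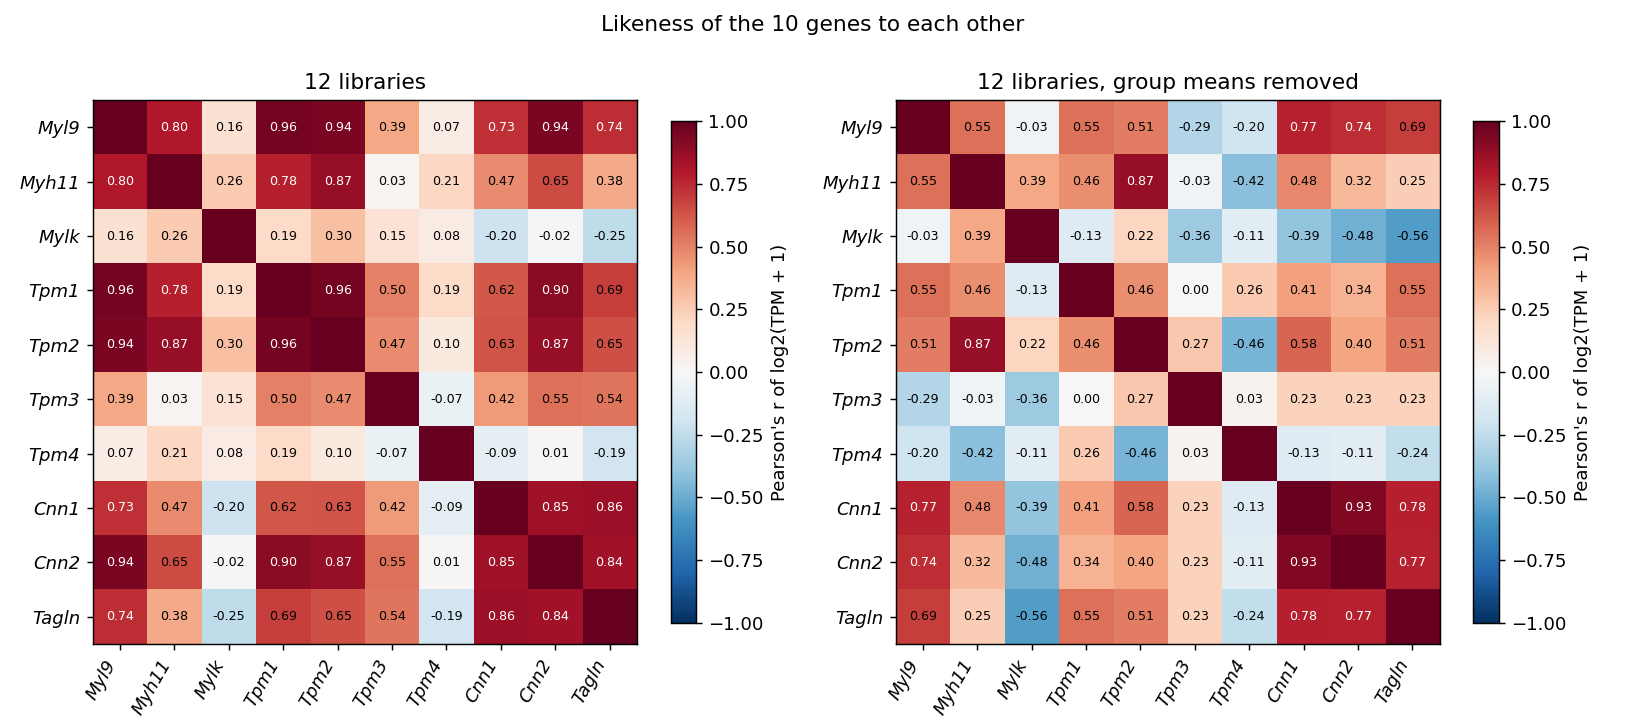
Pearson's r of log2(TPM + 1) between the 10 genes over 12 libraries, as measured (left) and with each group's mean removed (right). Both axes list the genes, and colour and number give r. Myl9, Tpm1, Tpm2 and Cnn2 form a block of 0.87 to 0.96 on the left, and Cnn1 with Cnn2 stands out at 0.93 on the right.

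Among other genes of the apparatus, the called actin and myosin partners were all higher in the comparisons of cells with FA against cells without it. Of 11 tested of a list of 14, FA raised 3 and lowered 0, MMA+FA raised 6 and lowered 0 against control, and FA added to MMA raised 7 and lowered 0, with medians of 0.18, 0.18 and 0.23. Of all genes, 3.67%, 6.67% and 4.19% were called higher in these comparisons, and 8.7%, 32.6% and 9.53% lower. Under median-ratio scaling 5, 10 and 8 partners were higher and 0 lower. Of all genes, 717, 1948 and 793 were then higher, and 447, 1655 and 757 lower. The 3 calls with FA alone (Acta2, Myl12a and Lmod1) were each lost when control replicate 3 or FA replicate 1 was left out (adjusted p up to 0.0544, 0.0606 and 0.122). Lmod1 lost this call in 9 of 15 settings. Of the 6 calls with MMA+FA, 1 was lost in 6 of 14 settings. Of the 7 calls with FA added to MMA, 2 were lost, in 7 and 6 of 15 settings. With MMA+FA against control, Myl12a, a non-muscle regulatory light chain, rose by 0.38 (adjusted p = 0.000185), from 1634 to 2127 TPM. Acta2, smooth muscle actin, rose by 0.42 (adjusted p = 0.000239), Actg2, enteric smooth muscle actin, by 0.25 (adjusted p = 0.00131), and Myl6, the essential light chain, by 0.18 (adjusted p = 0.00213). Lmod1, a smooth muscle leiomodin that nucleates actin, fell by 0.24 with MMA (adjusted p = 0.00874) and rose by 0.43 when FA was added to MMA (adjusted p = 0.000272). The fall was not called under median-ratio scaling (-0.16, adjusted p = 0.0571). MMA alone raised 1 partner (Myl12a) and lowered 2 (Lmod1 and Cald1), or 2 and 0 under that scaling. Of all genes as deposited, MMA called 3.85% higher and 16.5% lower.

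Genes that control light chain phosphorylation were called about as often as all genes (of which MMA called 20.4%, FA 12.4% and MMA+FA 39.3% against control), and how many rose or fell depended on the scaling. Of 16 tested of 20 genes, MMA raised 0 and lowered 3 (Rock1, Rock2 and Ppp1r12b), which median-ratio scaling and the loss of some single libraries took above the threshold (adjusted p up to 0.112, 0.151 and 0.156). Under that scaling 3 genes of the list were higher and 0 lower. With MMA+FA 2 rose and 4 fell, or 5 and 1 under that scaling. Rock2, a kinase that inhibits the myosin phosphatase, fell by 0.41 with MMA+FA (adjusted p = 0.00546), and by 0.29 with adjusted p = 0.03 under that scaling. FA raised 2 (Rhob and Rhoc) and lowered 0, and both calls were lost without some single libraries (adjusted p up to 0.0837 and 0.143). FA added to MMA changed 0 in limma at an adjusted p under 0.05, where 13.7% of all genes were called.

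All 20 genes of the list of SRF, its coactivators and related targets were tested. Of all genes, MMA called 3.85% higher and 16.5% lower, FA 3.67% and 8.7%, and MMA+FA 6.67% and 32.6%, each against control. FA added to MMA called 4.19% of all genes higher and 9.53% lower. Of the 20 genes, MMA raised 2 and lowered 6, or 2 and 4 under median-ratio scaling. Srf fell by 0.28 (adjusted p = 0.00651), the TEAD factor Tead1 by 0.25 (adjusted p = 0.00397) and the coactivator Tgfb1i1 by 0.28 (adjusted p = 0.00551), while Ccn1, a secreted matrix protein, rose by 0.27 (adjusted p = 0.00436). These 4 were called in all 15 alternative settings. FA raised 2 (Ccn1 and Vcl) and lowered 0, and the call of Vcl was lost in 5 of 15 settings (adjusted p up to 0.0964). MMA+FA against control raised 4 and lowered 4, or 7 and 2 under that scaling. Vcl, the focal adhesion protein vinculin, rose by 0.30 (adjusted p = 0.000104) and Fhl2 by 0.33 (adjusted p = 0.000633), and Tead1 fell by 0.31 (adjusted p = 0.000334). FA added to MMA raised 3 and lowered 1, with Vcl at 0.47 (adjusted p = 1.44e-05) and Csrp2 at -0.60 (adjusted p = 0.00209).

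Of the nearest relatives of the calponins and transgelin, Tagln2 averaged 935 TPM and Cnn3 574 TPM, and Tagln3 was near 0 (0.12 TPM). Tagln2 rose by 0.15 with MMA (adjusted p = 0.0083). Cnn3 fell by 0.16 with MMA+FA against control (adjusted p = 0.0141), but by 0.03 under median-ratio scaling (adjusted p = 0.671), and leaving out control replicate 3 (-0.14, adjusted p = 0.0587) or MMA+FA replicate 3 (-0.11, 0.0534) also ended the call. Of 5 tested genes that cap thin filaments, 1 rose with MMA+FA against control, Tmod3 (0.13, adjusted p = 0.0356, lost in 7 of 15 settings with values up to 0.125), and 0 changed in the other 2 comparisons against control. Of all genes, MMA+FA called 39.3% (6.67% higher), MMA 20.4% and FA 12.4%.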

How the data were processed

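Expression was measured in 12 libraries of H9c2 cells, 3 per group, with groups and replicate numbers taken from the sample titles. TRIzol extraction and the Illumina Stranded mRNA Prep kit were used, per the labels' protocols. The submitters' processing notes name fastp, HISAT2 and the build mRatBN7.2, without versions, annotation or strand setting. The authors deposited TPM for each gene. RSEM appears in the table's title and nowhere else. TPM keeps no depth, so no counting error is given.

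For genes averaging 1 TPM or more, log2(TPM + 1) was fitted in limma 3.58.1 (in R 4.3.3, tables read by the data.table package, version 1.17.8). The fit had 1 mean per group over all 12 libraries, a mean-variance trend, 8 residual and 4.317 prior degrees of freedom. Adjusted p is Benjamini-Hochberg over the 12263 genes of each comparison, called under 0.05. A permutation of 3 against 3 libraries cannot go below p = 0.1, so none was used. All 10 genes are named whatever their result. Up to 4 called genes per list and comparison, those with the smallest p, may be named, and at most 3 neighbours per gene. Some genes that this rule names are not reported here. Members and lists were chosen with earlier results of these data known. Listed genes without a row in the table were not analysed here. Reads shared between tropomyosin paralogs could not be examined. Alternatives were other pseudocounts (0.1 and 5), filters, scalings and variance models, a replicate block, and leaving out each library. No 2 columns were identical. The code was tested on simulated data. Figures were drawn in matplotlib 3.10.9 (Python 3.11.15).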

Additional observations from a re-analysis of the deposited data

Results flagged for a closer look

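None of the 10 genes had an interaction past the threshold, but 5 genes of the lists around them did, where 2.41% of all genes were called. Limma's interaction asks whether FA acted differently with and without MMA. The SRF list had 2 positive and 2 negative calls in 20 tested, and the relatives of the calponins and transgelin 1 negative in 2 tested. None was called of the 11 actin and myosin partners, the 16 light chain phosphorylation genes and the 5 capping genes tested. Vcl had an interaction of 0.33 on the log2 scale (adjusted p = 0.0112), and its group means were 124 TPM (control), 110.1 (MMA), 136 (FA) and 153 (MMA+FA). Its call held in all 20 alternative settings. Csrp2 had -0.75 (adjusted p = 0.0207), means of 74.2 TPM (control), 93.9 (MMA), 82.5 (FA) and 62.0 (MMA+FA), and lost its call in 6 of 20 settings. Ccn1 had -0.37 (adjusted p = 0.019), means of 476 TPM (control), 574 (MMA), 596 (FA) and 556 (MMA+FA), and lost its call in 2. Fhl2 had 0.33 (adjusted p = 0.0427), lost in 12 settings. Tagln2 had -0.18 (adjusted p = 0.0498), lost in 16.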

How the results depend on the processing

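No difference of the 10 genes that was called in either fit changed its sign. Over 1136 values of a gene in a comparison under an alternative setting, 1077 stayed on their side of the threshold, 42 lost a call and 17 gained 1. Most of these values belong to differences that the main fit did not call and that could not lose a call. Among the calls, that of Tpm2 with MMA added to FA was lost in 9 of 15 settings. The 5 calls of FA against control fell to 3 with no filter on low values and to 3 without the mean-variance trend. Only Tpm1 was called (1 gene) when just those 2 groups were fitted. MMA against control called 2 genes without the trend. MMA+FA against control called 9 under median-ratio scaling. MMA+FA against FA called 3 under that scaling, and 0 with no filter, with only the groups compared and with a replicate block (3, 2 and 3 at an unadjusted p under 0.05 in limma). Of all genes fitted in these 3 settings, 4081, 2736 and 3474 had an unadjusted p under 0.05. The interaction called 1 gene, Myh11, with a pseudocount of 5, under median-ratio scaling, in TPM without mitochondrially encoded genes and without the trend. The replicate block ended no other call of the 10 genes. No label says that a replicate number marks a shared culture, batch or day. Deviations of same-numbered libraries correlated between -0.12 and 0.11, above 0.1 in 1 of 18 pairs, and those of differently numbered libraries between -0.20 and 0.14. Such values cannot settle what a number marks. The cause of the changes in calls was not tested.

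With 1 library left out, the calls ranged from 0 to 1 for MMA, from 0 to 5 for FA and from 5 to 6 for MMA+FA, each against control. They ranged from 4 to 5 for MMA+FA against MMA, from 0 to 1 for MMA+FA against FA, from 0 to 0 for the interaction and from 5 to 6 in the F test. Over all genes, the 1517 calls of FA against control became 928 with no filter, 672 with only these groups, and 214 (without control replicate 3) to 2571 (without FA replicate 2) with 1 library left out. The 1288 calls of MMA+FA against FA became 699 with no filter, 729 under median-ratio scaling, 75 with only these groups, and 352 (without FA replicate 1) to 2011 (without FA replicate 2) with 1 library left out. The 2501 calls of MMA against control fell to 1271 without control replicate 1, to 1310 without control replicate 3 and to 1177 without MMA replicate 3. The 1683 of MMA+FA against MMA fell to 869 and 875 without MMA replicates 1 and 2. The 295 of the interaction became 181 with no filter, and 91 (without control replicate 1) to 496 (without FA replicate 2) with 1 library left out. Depth is unknown, so the counting error of low genes such as Myh11 and Mylk cannot be given.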
